A study of Mus musculus with 12 samples.

Results

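Collagens were described here as a gene family across liver and brain of Mettl5 knockout mice and their controls. Members were the protein-coding genes whose symbol reads Col, a number, the letter a and a number, and this rule gave 44 of the 55487 genes counted. They were grouped by the structure of the proteins they encode into 11 fibrillar collagens, 6 basement membrane network collagens, 6 beaded filament collagens, 9 FACITs (fibril-associated collagens with interrupted triple helices), 4 transmembrane collagens, 3 hexagonal network collagens, 2 multiplexins, 1 anchoring fibril collagen and 2 others. All 44 genes had at least 1 count in at least 1 library, although between 6 and 10 of them were at 0 in each liver library and at most 1 in each brain library.

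Collagens are secreted or membrane-bound proteins in which 3 chains wind into a triple helix. Fibrillar collagens form the load-bearing fibers that accumulate in a fibrotic liver, whereas the collagen IV network and the multiplexins lie in the basement membranes under endothelium and epithelium. In liver, hepatic stellate cells and portal fibroblasts are known as the main source of fibrillar collagen, while hepatocytes are a known source of collagen XVIII, the precursor of the circulating fragment endostatin. In brain, fibrillar collagens are largely a product of the meninges and perivascular fibroblasts, collagen IV is a component of the vessel wall, and several FACITs and transmembrane collagens are made by neurons.

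RNA was taken from liver and brain of 6 mice, giving 12 libraries in 4 groups of 3. Mice B, D and E were labelled WT and mice A, C and F were labelled KO, and each mouse gave a liver and a brain. The KO allele came from a Mettl5 line with a floxed exon 2, made in hybrid C57bl/6 x 129S6 embryonic stem cells, backcrossed to B6 and crossed with B6.C-Tg(CMV-cre)1Cgn/J mice, in which the CMV promoter drives Cre, for deletion in the whole body. Labels named neither sex, age, litter nor batch. The study's text describes the controls of this RNA-seq as heterozygous Mettl5+/- mice in 3 pairs with the knockouts, whereas the sample labels say WT and give no pairs, so WT means here only the libraries labelled WT. Because organ tissue was lysed in bulk, fewer cells of a type and less RNA per cell cannot be told apart in any result below. 

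Libraries held between 14403309 and 21623180 counts. Mettl5, which encodes a methyltransferase of the small-subunit ribosomal RNA, was lower in all KO than in all WT libraries of each tissue. In liver its level was 13.2 ± 5.03 CPM in WT and 4.93 ± 0.289 CPM in KO (mean ± SD, n = 3), a log2 fold change of -1.44 with an SE of 0.27 and an edgeR adjusted p of 0.383, and in brain 5.24 ± 1.66 and 2.91 ± 0.265 CPM, a log2 fold change of -0.84 with an SE of 0.27 and an adjusted p of 0.373. Both exact permutation tests gave p = 0.1, and 3 against 3 libraries cannot give a lower value. The 8 hepatocyte markers summed to between 88436 and 118057 CPM in liver and between 11.6 and 30.6 CPM in brain, and the 8 neuron markers to between 13.1 and 25.8 CPM in liver and between 2823 and 3502 CPM in brain. Mice E and F lacked Y-linked transcripts (at most 20 counts over 4 Y-linked genes, against at least 2112 in the libraries of the other mice), so each genotype held 1 mouse without and 2 mice with them. Counts of the mitochondrial rRNA genes took between 7.36% and 31.6% of a library.

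Levels of different genes are given per length, as CPM (read counts scaled to library size, with TMM factors over all 12 libraries) divided by the kilobases of annotated exon. The liver repertoire was dominated by Col18a1, which encodes the basement membrane multiplexin collagen XVIII (chr10:77052178-77166548, minus strand, GRCm38). Col18a1 was measured at 235, 188 and 191 CPM per kb in WT livers B, D and E and at 250, 244 and 239 in KO livers A, C and F, and it alone took between 68.3% and 75.8% of all collagen counts of a liver library. In brain, the same gene took between 1.20% and 5.50% of collagen counts. Among the next liver genes, Col14a1, a FACIT of fibril surfaces, was measured at 14.5, 14.01 and 18.6 CPM per kb in WT and 24.2, 13.7 and 19.7 in KO livers. The collagen IV genes Col4a1 and Col4a2 followed, with the values given below. 

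Fibrillar collagens of liver lay far below Col18a1. Col3a1, the reticular fiber collagen, was measured at 4.29, 4.31 and 11.1 CPM per kb in WT livers B, D and E and at 8.20, 5.23 and 10.9 in KO livers A, C and F. Col5a3, a minor fibril chain, was at 8.31, 5.11 and 2.13 in WT and at 4.89, 6.92 and 1.66 in KO livers. The high and the low libraries of these 2 genes crossed genotypes: mice E and F were highest for Col3a1 and lowest for Col5a3. Col5a1, which nucleates fibrils, was at 2.32, 2.01 and 3.34 in WT and at 3.67, 2.37 and 4.27 in KO livers. Col6a1, a chain of the microfibrillar collagen VI, was at 1.97, 2.64 and 3.73 in WT and at 3.66, 2.36 and 3.96 in KO livers, so that the genotypes overlapped for both. Col1a1, the chain most often used to follow fibrosis, was at 0.897, 0.886 and 2.57 in WT and at 2.91, 1.73 and 3.17 in KO livers, with WT mouse E inside the KO range.

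The brain repertoire was flatter, and no gene held as much of it. Col19a1, a FACIT made by neurons, was measured at 3.54, 2.49 and 3.56 CPM per kb in WT brains B, D and E and at 3.05, 3.30 and 3.72 in KO brains A, C and F. Col25a1, a transmembrane collagen of neurons, was at 2.42, 2.48 and 2.51 in WT and at 3.13, 2.54 and 2.89 in KO brains. For Col19a1 the genotypes overlapped, whereas every KO brain was above every WT brain for Col25a1. Col9a3 and Col9a2 encode 2 chains of the FACIT collagen IX: Col9a3 was at 2.24, 3.58 and 2.79 in WT and at 1.14, 2.47 and 1.84 in KO brains. Col9a2 was at 1.68, 3.18 and 1.92 in WT and at 1.09, 2.14 and 1.40 in KO brains, highest in WT mouse D and lowest in KO mouse A, as Col9a3 was. Col11a2, a fibrillar chain, was at 1.21, 2.46 and 1.46 in WT and at 0.991, 1.94 and 1.03 in KO brains, with the same 2 extremes. Neighbours in the order of brain levels differed little: from Col19a1 (3.20 ± 0.615, mean ± SD, n = 3) to Col9a2 (2.26 ± 0.809), each of the 7 highest WT means differed from the next in order by less than the larger SD of the pair. In WT liver the same held for Col4a2 (6.71 ± 0.829) and Col3a1 (6.58 ± 3.95), but not for Col18a1 (205 ± 26.2) and Col14a1 (15.7 ± 2.51).

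Summed over the 44 genes, the level per length was 274 ± 28.7 CPM per kb in WT liver, 330 ± 12.9 in KO liver, 35.6 ± 5.32 in WT brain and 36.2 ± 6.07 in KO brain (mean ± SD, n = 3). As a share of all counts, collagens were at 0.154%, 0.137% and 0.164% in WT livers B, D and E and at 0.196%, 0.176% and 0.202% in KO livers A, C and F, without overlap. The mitochondrial rRNA share moved with genotype in the other direction, from between 10.7% and 16.9% of counts in WT to between 7.36% and 8.66% in KO livers. With those rRNAs left out of the total, the collagen shares were 0.184%, 0.154% and 0.198% against 0.213%, 0.193% and 0.219%, and the genotypes overlapped. In brain the shares were 0.0300%, 0.0428% and 0.0344% in WT and 0.0244%, 0.0368% and 0.0346% in KO libraries, and they overlapped in either reckoning. The mitochondrial rRNA share separated the genotypes in brain too, at 7.63% to 17.7% in WT and 21.4% to 31.6% in KO libraries, and the mean collagen share, 0.0357% in WT and 0.0319% in KO, turned to 0.0406% and 0.0423% without those rRNAs. Col18a1 carried most of the organ difference: without it the collagen share of all counts was 0.0414% ± 0.00937 in WT liver and 0.0341% ± 0.00587 in WT brain, and WT and KO livers overlapped (0.0348% to 0.0521% and 0.0432% to 0.0597%). With the mitochondrial rRNA genes taken out of the table, edgeR called 0 of 41 members between brain genotypes, as with them, and 5 were higher and 5 lower at an unadjusted p under 0.05 (median log2 fold change 0.011).

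**Figure D1:**
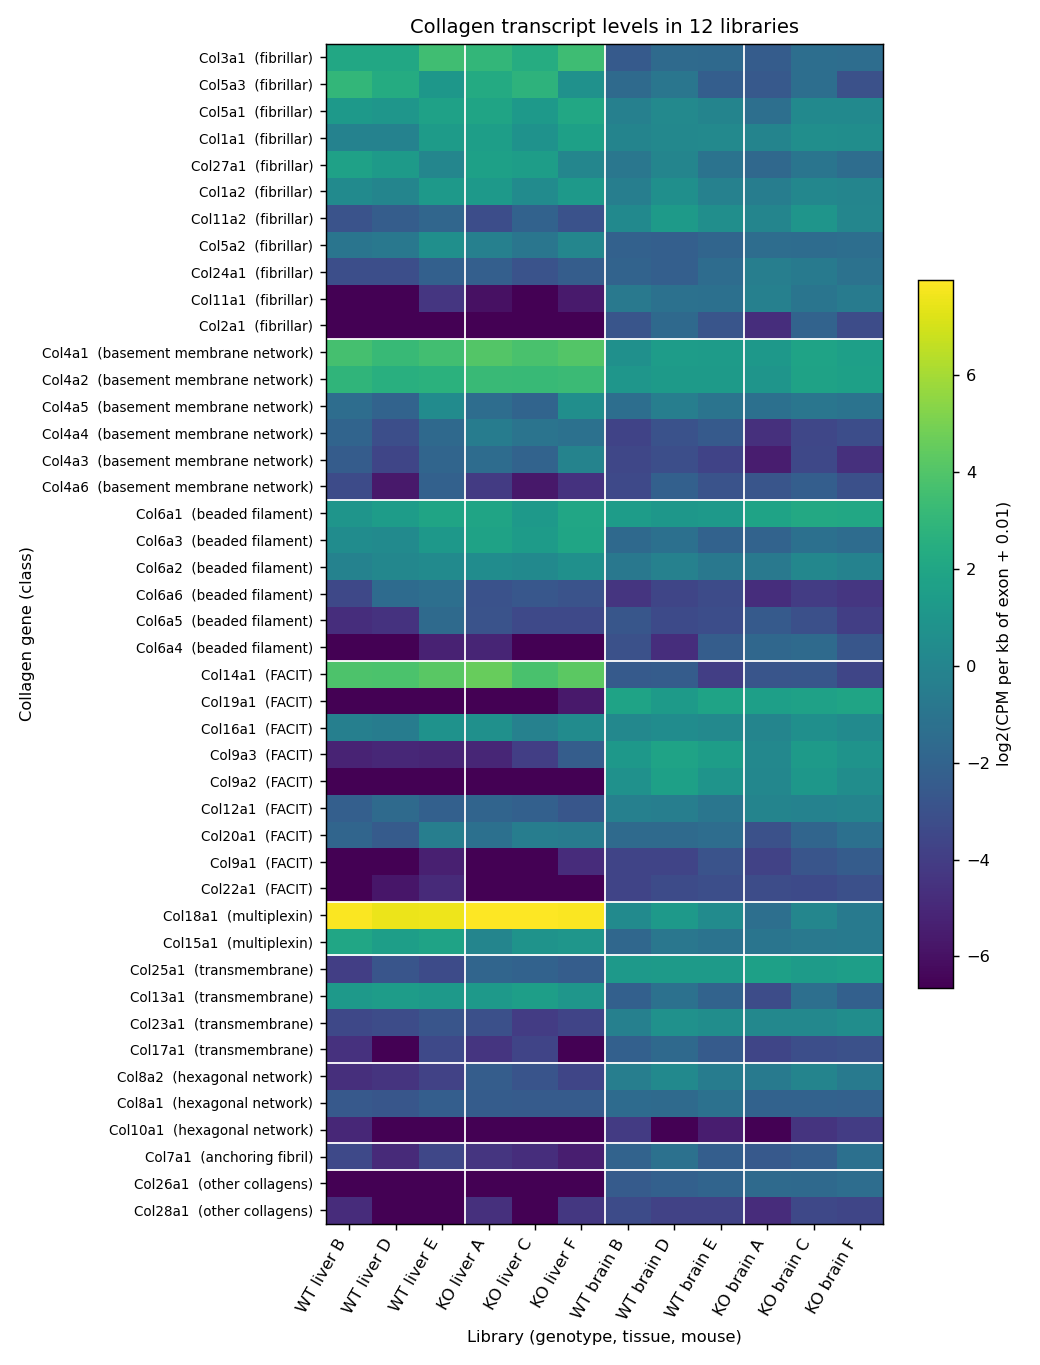
Level of each of the 44 collagen genes (rows, ordered by structural class) in each of the 12 libraries (columns), as log2 of CPM per kb of exon plus 0.01. Col18a1 stands out in all 6 livers (188 to 250 CPM per kb), and Col19a1, Col9a2 and Col26a1 are low in liver and higher in brain.

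The comparison of liver with brain, made within each genotype, asked which collagens belong to which organ. Liver carried more Col18a1, Col14a1, Col3a1 and Col5a3, and brain more Col19a1, Col9a2, Col9a3 and Col25a1. In WT mice 40 of the 44 genes could be tested, and edgeR called 15 higher and 16 lower in liver at an adjusted p under 0.1, where 35.4% and 42.9% of all 17694 genes tested were called higher and lower. In KO mice, which share no library with the WT mice, 39 could be tested and 19 were called higher and 15 lower, with 36.2% and 44.1% called among all 17396 genes tested. These shares of members, 37.5% and 40.0% in WT and 48.7% and 38.5% in KO, lay near those of all genes except for the higher calls in KO. 15 genes were called higher in both genotypes and 13 lower in both, and none was called in opposite directions. By class, 5 of the 8 FACITs tested were called lower in liver in each genotype and 1 in WT and 2 in KO mice higher, while of the transmembrane collagens 3 of 4 in WT and 2 of 3 in KO mice were called lower and 1 higher. Of the FACITs called lower, Col9a2, Col9a3, Col19a1 and Col22a1 had at most 3 counts in any WT liver. They passed the filter on low counts only through brain, so their direction was nearly fixed by being tested.

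Among genes above the floor in both organs, Col18a1 differed most, with a log2 fold change of 6.96 (SE 0.33, adjusted p 1.67e-08) in WT and 8.49 (SE 0.39, adjusted p 2.94e-08) in KO mice. Col14a1 was next, at 6.88 (SE 0.36) and 7.37 (SE 0.32), with brain levels of 0.166, 0.181 and 0.0564 CPM per kb in WT and 0.136, 0.137 and 0.0737 in KO mice. Every liver exceeded every brain by far for both genes. Col3a1 was higher in liver by 4.63 (SE 0.46) in WT and 4.71 (SE 0.35) in KO on the log2 scale, and Col5a3 by 3.89 (SE 0.55) and 4.35 (SE 0.65). Col13a1, a transmembrane collagen, was measured at 2.39, 2.69 and 2.33 CPM per kb in WT and 2.39, 2.85 and 2.07 in KO livers and at 0.216, 0.433 and 0.245 in WT and 0.0952, 0.399 and 0.210 in KO brains. Its log2 fold change was 3.04 (SE 0.30) and 3.35 (SE 0.41). The other fibril-forming chains split: Col1a1 and Col1a2, the chains of collagen I, were not called in WT mice (log2 fold changes of 0.44 and 0.55) and were called higher in KO livers (1.02 and 1.09).

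Several collagens of brain were at or near 0 in liver. A group was taken as at the floor where no library exceeded 3 counts, and 10 genes were at the floor in WT liver and 10 in KO liver, while Col10a1, the growth plate collagen, was at it in brain too. Col19a1 had 0 counts in the 3 WT livers and at most 1 in the 3 KO livers, against 431 to 621 counts in WT and 330 to 496 in KO brains. Taking 3 counts per library as the floor, Col19a1 was at least 102-fold higher in WT brain than in WT liver and at least 107-fold higher in KO brain. Col9a2 had no count in any liver and was at least 32.4-fold and 22.2-fold higher in brain. The other bounds for WT mice were 51.2-fold for Col9a3, which had 1 count in each WT liver, 8.26-fold for Col2a1, the cartilage fibril collagen, 7.94-fold for Col26a1, 3.77-fold for Col22a1, 2.08-fold for Col9a1 and 1.68-fold for Col28a1. In KO mice they were 39.1-fold for Col11a1, 12.6-fold for Col26a1, 9.79-fold for Col6a4, 4.13-fold for Col22a1, 2.98-fold for Col9a1 and 1.37-fold for Col28a1. No bound is given for Col6a4 in WT and Col2a1 in KO mice, since they moved by over 1.5 times without 1 mouse (brain counts of 19, 6 and 41, and of 4, 40 and 17). Col11a1, a fibrillar chain of cartilage, had 0, 0 and 7 counts in WT livers, where mouse E alone carried it, and 146, 138 and 130 in WT brains.

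**Figure D2:**
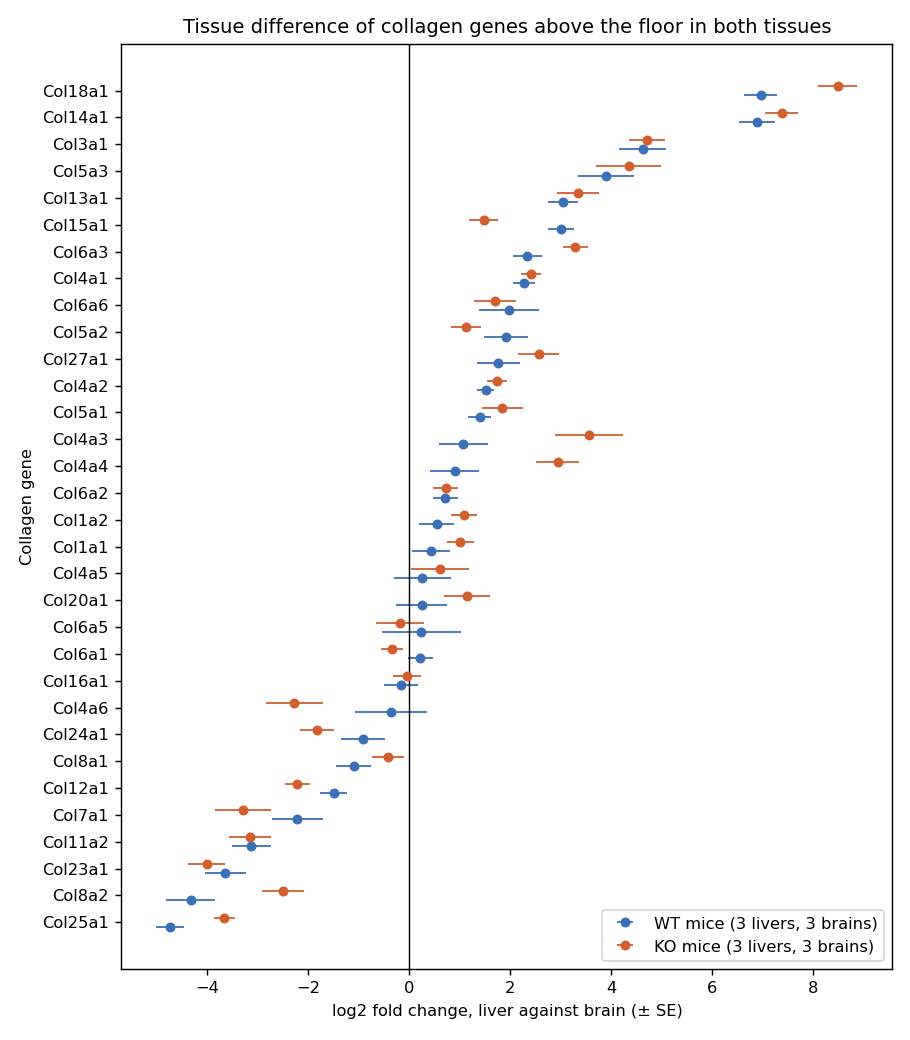
Log2 fold change of liver against brain (x axis, points with SE bars) in WT and in KO mice for the 32 collagen genes that could be tested in both genotypes and exceeded 3 counts in at least 1 library of every group. Col18a1 and Col14a1 are the highest and Col25a1 the lowest in WT mice, and Col15a1 lies lower in KO (1.48) than in WT mice (3.01).

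The comparison of KO with WT liver asked whether collagen transcripts moved with loss of Mettl5. Col15a1, which encodes the second multiplexin, was lower in KO livers, and Col6a3, Col4a2, Col4a1, Col4a4 and Col25a1 were higher, but none passed the test after adjustment. Of 28 members tested, edgeR called 0 at an adjusted p under 0.1, as it called 0% of all 14075 genes, while DESeq2 called 2 members. At an unadjusted p under 0.05, 6 members were higher (21.4%, against 2.76% of all genes) and 1 was lower (3.57%, against 4.57%). 6 members were higher without overlap of the genotypes (6.5% of all genes were) and 1 was lower without overlap (6.44% of all genes). 19 members were higher and 9 lower, with a median log2 fold change of 0.23 beside -0.0024 for all genes. By class, all 5 basement membrane network collagens tested were higher (log2 fold changes from 0.11 to 1.49), against 5 of 9 fibrillar, 3 of 5 beaded filament and 3 of 4 FACIT collagens.

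Col15a1 was measured at 4.01, 2.90 and 3.52 CPM per kb in WT livers B, D and E and at 1.01, 1.80 and 2.02 in KO livers A, C and F. All KO livers lay below all WT livers, with a log2 fold change of -1.14 (SE 0.25, adjusted p 0.387). Col6a3, the longest chain of collagen VI, was at 1.38, 1.24 and 2.21 in WT and at 3.38, 2.63 and 3.90 in KO livers. Again the genotypes did not overlap, and the log2 fold change was 1.0 (SE 0.24, adjusted p 0.428). Col25a1, low in liver with 11 to 22 counts in WT and 36 to 45 in KO libraries, was at 0.0552, 0.134 and 0.0923 CPM per kb in WT and at 0.266, 0.230 and 0.185 in KO livers, a log2 fold change of 1.25 (SE 0.40, adjusted p 0.497). Every KO liver exceeded every WT liver for it. Col18a1 was higher in each KO liver than in each WT liver, by 0.23 on the log2 scale (SE 0.14, adjusted p 0.798).

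Among the other members with a negative log2 fold change, no genotype separation was seen. Col6a6, a minor chain of collagen VI, was at 0.0785, 0.339 and 0.394 CPM per kb in WT and at 0.118, 0.148 and 0.124 in KO livers, where WT mouse B lay below all KO mice (log2 fold change -1.08, SE 0.56). Col12a1, a FACIT, was at 0.206, 0.324 and 0.214 in WT and at 0.248, 0.216 and 0.141 in KO livers (-0.33, SE 0.33). Col11a2 was at 0.124, 0.185 and 0.278 in WT and at 0.101, 0.229 and 0.117 in KO livers (-0.42, SE 0.50). For Col6a5, at 0.0278, 0.0338 and 0.323 in WT and 0.123, 0.0834 and 0.0853 in KO livers, the log2 fold change of -0.44 (SE 0.87) rested on WT mouse E and turned to 1.61 without it.

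Calls in liver depended on the test. DESeq2, which the study used, called 171 of 15516 genes (1.1%) and among them Col15a1 (log2 fold change -1.13, adjusted p 0.0128) and Col6a3 (1.01, adjusted p 0.0152), and a fit with the presence of Y-linked transcripts as a covariate called Col6a3 (1.03, adjusted p 0.0245) among 0.583% of all genes. Mouse E decided the count of higher members: without it, 13 members were higher at an unadjusted p under 0.05 and the median log2 fold change was 0.52, whereas without mouse D they were 4 and 0.077. The liver library of mouse E stood apart in some smooth muscle markers too, with 240 counts of Acta2 (11 to 53 in the other 5 livers), 789 of Myh11 (89 to 191) and 35 of Cnn1 (0 to 3). Other genes of the pericyte and smooth muscle list did not stand apart, such as Rgs5 (576, against 329 to 577) and Notch3 (50, against 15 to 62). Mouse E also had high Col3a1, Col1a1 and Col5a2, and the part of these markers in the result was not tested. The count of lower members was 2 without mouse B or without mouse D. A fit over all 12 libraries, in which 42 members were tested, gave 9 higher and 3 lower.

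Genes that make, process, bind and degrade collagen were read beside the members, and edgeR called none of them between genotypes in liver. Of 21 modification and secretion genes tested, 13 were higher and 8 lower in KO liver (median log2 fold change 0.045), among them the collagen chaperone Serpinh1 (0.37, SE 0.14, adjusted p 0.563) and the secretion receptor Mia2 (-0.56, SE 0.17, adjusted p 0.485). Of 14 processing and crosslinking genes, 12 were higher and 2 lower (median 0.15). Receptors stood at 3 higher and 4 lower (median -0.021), and degradation genes and inhibitors at 5 higher and 3 lower (median 0.13), including Reck, a membrane inhibitor of matrix metalloproteinases (-1.01, SE 0.23, adjusted p 0.400). Basement membrane partners were higher for 13 and lower for 3 of 16 genes (median 0.17), led by the heparan sulfate proteoglycan Hspg2 (0.42, SE 0.18, adjusted p 0.668). Serpinh1, Mia2, Reck and Hspg2 were the 4 genes of these lists with an unadjusted p under 0.05.

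Markers of the cells that make collagen were measured in the same libraries. The 14 stellate cell and fibrosis markers summed to 514, 488 and 621 CPM in WT livers B, D and E and to 747, 561 and 751 in KO livers A, C and F, with 11 higher and 3 lower (median log2 fold change 0.26) and no marker at 0. Reln (0.54, SE 0.16), Tgfb1 (0.51, SE 0.17) and Pdgfrb (0.48, SE 0.16) had the lowest p in that list, with adjusted p values of 0.479, 0.497 and 0.521. The 12 endothelial markers summed to 460, 449 and 571 in WT and 531, 485 and 600 in KO livers, 8 higher and 4 lower (median 0.071). Of the 10 pericyte and smooth muscle markers tested, 5 were higher and 5 lower (median -0.0058), and Cspg4 and Cnn1 were at 0 in WT mouse D and KO mouse F. The pericyte list summed to 2110, 2098 and 1758 CPM in WT and 2398, 2377 and 2399 in KO livers, but most of each sum was Vtn, a plasma protein gene that hepatocytes also express, at 1973, 1947 and 1523 CPM in WT and 2225, 2227 and 2227 in KO livers. Of 9 meningeal and fibroblast markers tested, 6 were higher and 3 lower (median 0.22), including the small proteoglycan Bgn (0.52, SE 0.18, adjusted p 0.546). The part of these cells in the collagen values was not tested.

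**Figure D3:**
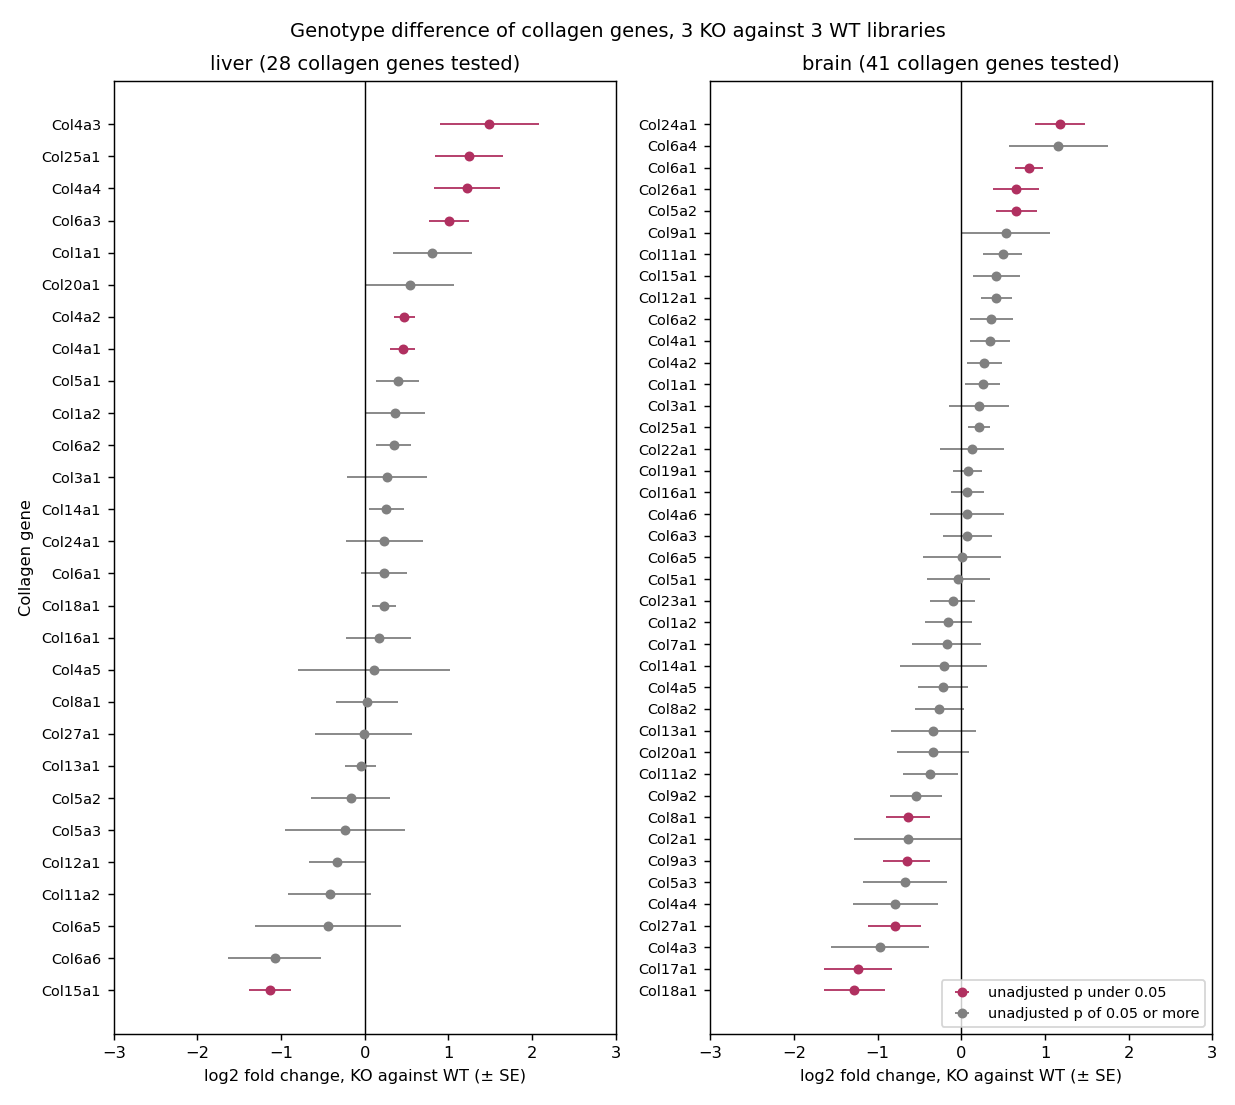
Log2 fold change of KO against WT (x axis, points with SE bars) for the collagen genes tested in liver (28 genes, left) and brain (41 genes, right). Colored points had an unadjusted p under 0.05, 7 genes in liver and 9 in brain, and none passed adjustment by edgeR.

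The comparison of KO with WT brain asked the same of the brain. Col6a1, Col24a1, Col5a2 and Col26a1 were higher and Col18a1, Col17a1, Col27a1, Col8a1 and Col9a3 lower in KO brains, and none passed the test after adjustment. Of 41 members tested, edgeR called 0 at an adjusted p under 0.1, where 0.064% of all 17188 genes were called, while DESeq2 called 3 members. At an unadjusted p under 0.05, 4 members were higher (9.76%, against 5.96% of all genes) and 5 were lower (12.2%, against 5.01%). Genotypes did not overlap for 6 members higher in KO (8.41% of all genes were) and 3 members lower in KO (7.94% of all genes). 21 members were higher and 20 lower, with a median log2 fold change of 0.010 beside -0.0016 for all genes. By class, all 5 beaded filament collagens tested were higher (log2 fold changes from 0.01 to 1.16), against 5 of 11 fibrillar, 3 of 6 basement membrane network and 5 of 9 FACIT collagens.

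Col6a1 was measured at 2.72, 2.13 and 2.36 CPM per kb in WT brains B, D and E and at 3.59, 4.58 and 4.40 in KO brains A, C and F, a log2 fold change of 0.81 (SE 0.17, adjusted p 0.320). Col24a1, a fibrillar collagen of cortical neurons and bone, was at 0.238, 0.209 and 0.348 in WT and at 0.743, 0.610 and 0.448 in KO brains (1.18, SE 0.30, adjusted p 0.320). The genotypes did not overlap for either gene. Col5a2 was at 0.221, 0.207 and 0.264 in WT and at 0.358, 0.349 and 0.383 in KO brains (0.66, SE 0.24, adjusted p 0.397). Col26a1 was at 0.173, 0.209 and 0.247 in WT and at 0.327, 0.305 and 0.361 in KO brains, on 28 to 57 counts (0.66, SE 0.28, adjusted p 0.432). Both separated the genotypes, as did Col12a1, at 0.812, 0.762 and 0.530 in WT and 0.953, 0.893 and 0.947 in KO brains (0.42, SE 0.19, adjusted p 0.455).

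In the other direction, Col18a1 was at 1.28, 2.35 and 1.32 CPM per kb in WT brains and at 0.390, 1.03 and 0.604 in KO brains, a log2 fold change of -1.28 (SE 0.36, adjusted p 0.355). Col17a1, the transmembrane collagen of hemidesmosomes, was at 0.210, 0.311 and 0.171 in WT and at 0.0741, 0.104 and 0.112 in KO brains, on 7 to 47 counts (-1.23, SE 0.41, adjusted p 0.380). WT mouse D was highest and KO mouse A lowest for both, and the genotypes did not overlap. Col8a1, a short-chain collagen of vessel walls, was at 0.329, 0.325 and 0.424 in WT and at 0.236, 0.231 and 0.224 in KO brains (-0.64, SE 0.27, adjusted p 0.432). Col27a1, a fibrillar chain, was at 0.543, 1.01 and 0.468 in WT and at 0.293, 0.496 and 0.369 in KO brains (-0.80, SE 0.32, adjusted p 0.415), and it overlapped between genotypes. Col9a3, given above, had a log2 fold change of -0.65 (SE 0.28, adjusted p 0.442) with overlap as well.

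DESeq2 called 269 of 16987 genes (1.58%) in brain, among them Col6a1 (log2 fold change 0.80, adjusted p 0.0240), Col24a1 (1.17, adjusted p 0.0725) and Col18a1 (-1.29, adjusted p 0.0388). edgeR without the filter on low counts called these 3 and also Col27a1 (adjusted p 0.0312) and Col9a3 (adjusted p 0.0690), among 3.15% of all genes. Counts at an unadjusted p under 0.05 changed with single libraries: they were 2 higher and 2 lower without WT mouse D, 5 higher and 3 lower without WT mouse E, 4 higher and 2 lower without KO mouse A, 3 higher and 2 lower without KO mouse F, and 4 higher and 9 lower without KO mouse C. A fit over all 12 libraries gave 2 higher and 2 lower, and the Y-linked covariate 5 higher and 3 lower.

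Markers of brain regions separated the same genotypes. The 10 choroid plexus markers, all above 0 in each brain, summed to 226, 322 and 192 CPM in WT brains B, D and E and to 98.5, 154 and 134 in KO brains A, C and F, and all 10 were lower in KO (median log2 fold change -0.93), with Slc4a5 (-1.59), Clic6 (-0.88) and Ttr (-0.97) each at an adjusted p of 0.320. The 12 cerebellum markers summed to 1116, 1431 and 912 in WT and to 216, 612 and 507 in KO brains, all 12 lower (median -1.47). The 10 olfactory bulb markers summed to 18.4, 28.3 and 24.5 in WT and to 69.4, 94.1 and 78.6 in KO brains. Of these, edgeR called 6 higher, led by Omp (3.70, SE 0.32, adjusted p 0.00674), where 0.064% of all 17188 genes were called. This list, like the others, was chosen with earlier results of these data known, so its calls are not an independent test. S100a5, Tbx21 and Scgn of that list were at 0 in WT mouse E. WT mouse D and KO mouse A were the highest and lowest libraries for Col18a1 and for the choroid plexus and cerebellum markers alike. These 2 extremes were not particular to those lists. They held for the endothelial markers too (90.8 and 50.9 CPM) and, in reverse, for the mitochondrial rRNA share (7.63% in mouse D and 31.6% in mouse A). The part of regional tissue content in the brain collagen values was not tested.

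**Figure D4:**
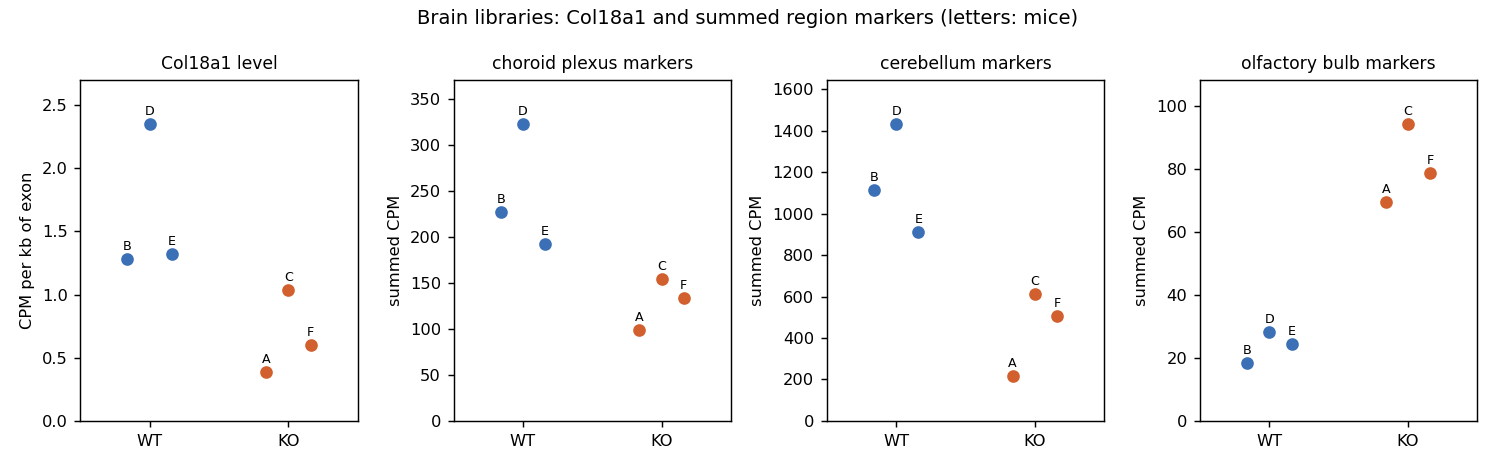
Level of Col18a1 (CPM per kb) and summed CPM of choroid plexus, cerebellum and olfactory bulb markers in the 6 brain libraries, each point 1 mouse. Col18a1, choroid plexus and cerebellum are lower, and olfactory bulb higher, in all 3 KO than in all 3 WT brains.

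Vessel and meninges markers separated less. The 14 meningeal and perivascular fibroblast markers summed to 65.4, 84.9 and 76.0 CPM in WT and 71.0, 81.3 and 79.7 in KO brains, with 6 higher and 8 lower (median log2 fold change -0.012) and none at 0. The largest part of each sum was a single gene, Pdgfra, at 475, 822 and 790 counts in WT and 434, 536 and 607 in KO brains. Collagen I chains, their usual product, overlapped between genotypes: Col1a1 was at 0.969, 1.11 and 1.16 CPM per kb in WT and 0.941, 1.46 and 1.44 in KO brains. Col1a2 was at 0.739, 1.54 and 0.830 in WT and 0.727, 1.06 and 0.995 in KO brains. The 12 endothelial markers summed to 62.0, 90.8 and 68.7 in WT and 50.9, 67.9 and 58.4 in KO brains, and of 11 tested 4 were higher and 7 lower (median -0.34), while Col4a1 and Col4a2 had log2 fold changes of 0.34 (SE 0.24) and 0.27 (SE 0.21). Of the 11 pericyte and smooth muscle markers tested, 3 were higher and 8 lower (median -0.41), and edgeR called none of the genes of these 3 lists. Among modification and secretion genes 18 of 22 were lower in KO brain (median -0.15), and among processing and crosslinking genes 11 of 13 (median -0.27), including the procollagen proteinases Tll1 (-0.89, SE 0.23, adjusted p 0.320) and Bmp1 (-0.82, SE 0.32, adjusted p 0.415). Basement membrane partners were lower for 11 of 16 (median -0.10), receptors for 3 of 9 (median 0.11), and degradation genes and inhibitors for 5 of 9 (median -0.10). Of the genes of these 5 lists Tll1, Bmp1, the metalloproteinase inhibitor Timp4 (-0.71, SE 0.21, adjusted p 0.355), the procollagen peptidase Adamts3 (0.38, SE 0.16, adjusted p 0.435) and the laminin chain Lama3 (0.87, SE 0.25, adjusted p 0.355) had an unadjusted p under 0.05.

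Whether the genotype effect differed between organs was tested in 1 fit over all 12 libraries. Of 42 members tested, edgeR called 0, as it called 0% of all 18944 genes, and at an unadjusted p under 0.05 the effect was more positive in liver for 7 members (16.7%, against 5.51% of all genes) and more negative for 2 (4.76%, against 5.07%). The 2 lowest p values belonged to the 2 multiplexins, in opposite directions. For Col15a1 the effect in liver minus that in brain was -1.52 on the log2 scale (SE 0.39, adjusted p 0.203), with brain levels of 0.286, 0.538 and 0.467 CPM per kb in WT and 0.511, 0.598 and 0.619 in KO mice. For Col18a1 it was 1.54 (SE 0.42, adjusted p 0.234). Per length, the ratio of Col18a1 to Col15a1 was 54.4 to 64.8 in WT livers and 118 to 248 in KO livers, and 2.83 to 4.47 in WT brains and 0.762 to 1.73 in KO brains, where mice A and F had less Col18a1 than Col15a1, so the ratio moved in opposite directions in the 2 organs. DESeq2 called 3 members here, Col15a1, Col18a1 and Col25a1, among 369 of 17699 genes (2.08%). Without mouse E, 11 members were more positive in liver, and without mouse A, D or F, 4 were. The count of more negative members was 4 without mouse B, 3 without mouse D and 1 without mouse A, C, E or F.

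**Figure D5:**
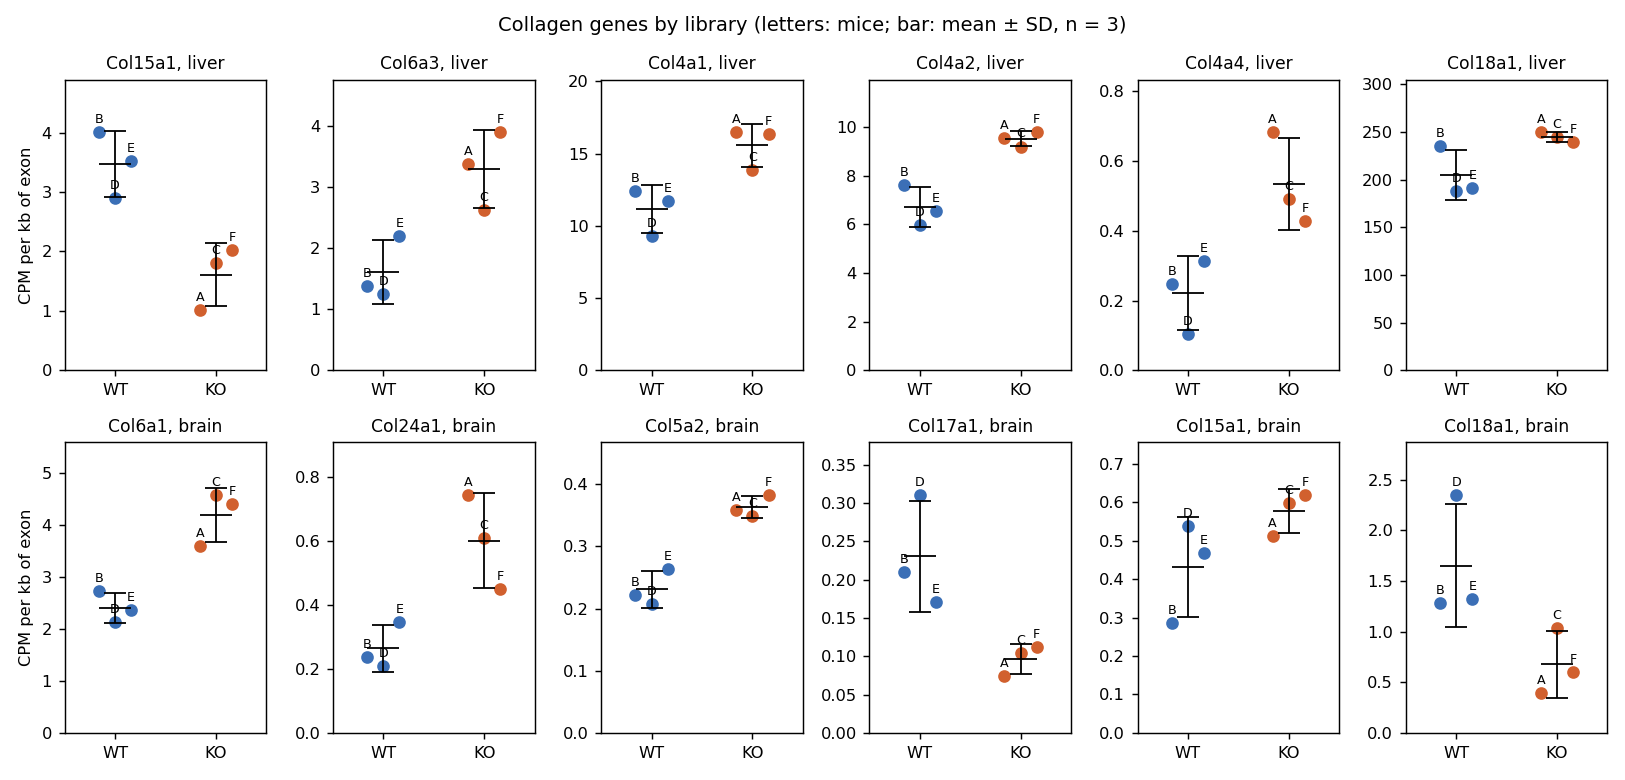
Levels (CPM per kb) of 6 collagen genes in liver (upper row) and 6 in brain (lower row), each point 1 mouse, with the mean and SD of 3. Col15a1 is lower and Col6a3, Col4a1, Col4a2, Col4a4 and Col18a1 higher in all KO livers, while Col18a1 and Col17a1 are lower in all KO brains.

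Promoter windows of the multiplexins are shown because the 2 genes had opposite directions in each organ. They come from RefSeq (GRCm38.p6) and run from 250 bases before to 50 bases after an annotated start, 5′ to 3′ on the strand of the gene. Col15a1 has 1 window (chr4:47207762-47208061, plus strand), whose RefSeq start lies 149 bases from the gene start of the deposited annotation. Col18a1 has 2 (minus strand), that of an outer start at chr10:77166481-77166780 and that of an inner start at chr10:77113656-77113955. Capitals mark matches on either strand to GGGCGG, known as the GC box, to CCAAT, a common element of such regions, or to TATAAA, the core of the TATA box, none of which contains another. The outer Col18a1 window held 3 GC boxes and 1 CCAAT box, and the other 2 windows held none of the 3 motifs. Gene counts add all starts together, so they do not tell which Col18a1 start was used.
Col15a1: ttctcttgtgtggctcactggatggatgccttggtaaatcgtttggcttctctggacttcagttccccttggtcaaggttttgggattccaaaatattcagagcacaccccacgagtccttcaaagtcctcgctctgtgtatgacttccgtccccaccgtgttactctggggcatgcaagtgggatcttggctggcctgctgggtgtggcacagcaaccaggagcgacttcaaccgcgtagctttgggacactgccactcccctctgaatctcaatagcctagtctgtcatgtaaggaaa
Col18a1, outer start: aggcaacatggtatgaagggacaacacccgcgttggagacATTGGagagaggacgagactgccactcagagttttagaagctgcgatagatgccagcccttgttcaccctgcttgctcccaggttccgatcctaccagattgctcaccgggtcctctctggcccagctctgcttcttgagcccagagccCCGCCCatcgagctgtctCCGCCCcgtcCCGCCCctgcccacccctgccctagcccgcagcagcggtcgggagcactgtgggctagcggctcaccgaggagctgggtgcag
Col18a1, inner start: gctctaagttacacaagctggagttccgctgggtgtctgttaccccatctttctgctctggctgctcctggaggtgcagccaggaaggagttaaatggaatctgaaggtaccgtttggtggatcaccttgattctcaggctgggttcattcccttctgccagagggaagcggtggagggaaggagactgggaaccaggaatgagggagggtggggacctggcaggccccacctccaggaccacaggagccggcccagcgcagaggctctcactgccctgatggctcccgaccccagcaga

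Windows were found for 35 of the 44 genes, 38 windows in all. A GC box was present in 23 of them (60.5%, against 35.7% of all 32851 windows of that length), a CCAAT box in 13 (34.2%, against 37.4%) and a TATA box in 5 (13.2%, against 13.6%).

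The 6 collagen IV genes lie as 3 head-to-head pairs. Col4a1 and Col4a2 encode the chains of the network found in nearly all basement membranes, Col4a3 and Col4a4 those of the mature kidney filter, and Col4a5 and Col4a6 are on the X chromosome. In the deposited annotation the Col4a1 (chr8:11198423-11312826, minus strand) and Col4a2 (chr8:11312805-11449287, plus strand) gene bodies overlap at their starts by 22 bases. Col4a4 (chr1:82448423-82586849, minus strand) and Col4a3 (chr1:82586921-82722059, plus strand) are 71 bases apart. Col4a6 (chrX:141165403-141474076, minus strand) and Col4a5 (chrX:141475385-141689234, plus strand) are 1308 bases apart. The windows of the pairs that were higher in KO liver are printed for this reason, in the same format as above, and the Col4a4 window (chr1:82586800-82587099, minus strand) also covers the start of Col4a3. The Col4a1 (chr8:11312777-11313076, minus strand) and Col4a2 (chr8:11312555-11312854, plus strand) windows share 78 bases.
Col4a1: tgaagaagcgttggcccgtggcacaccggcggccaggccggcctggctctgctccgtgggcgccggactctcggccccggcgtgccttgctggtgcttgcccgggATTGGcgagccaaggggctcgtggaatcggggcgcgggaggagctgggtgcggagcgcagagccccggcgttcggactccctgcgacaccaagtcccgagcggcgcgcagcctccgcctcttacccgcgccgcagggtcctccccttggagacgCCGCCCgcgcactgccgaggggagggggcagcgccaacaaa
Col4a2: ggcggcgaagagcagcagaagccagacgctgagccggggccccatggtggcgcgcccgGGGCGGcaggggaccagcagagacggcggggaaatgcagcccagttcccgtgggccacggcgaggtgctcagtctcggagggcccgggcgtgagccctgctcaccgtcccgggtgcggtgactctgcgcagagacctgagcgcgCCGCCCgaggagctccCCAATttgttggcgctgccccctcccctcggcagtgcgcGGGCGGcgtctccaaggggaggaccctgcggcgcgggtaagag
Col4a4: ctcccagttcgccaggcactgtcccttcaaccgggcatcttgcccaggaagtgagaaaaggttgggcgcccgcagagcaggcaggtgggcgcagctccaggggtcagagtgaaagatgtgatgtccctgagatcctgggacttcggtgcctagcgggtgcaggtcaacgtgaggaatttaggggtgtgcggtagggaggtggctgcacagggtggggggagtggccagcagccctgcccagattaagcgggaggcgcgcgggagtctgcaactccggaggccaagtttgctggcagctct

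The Col4a1 window held 1 GC box and 1 CCAAT box and the Col4a2 window 3 and 1, while the Col4a4 window held none. Observed over expected CpG was 0.902 and 0.818 for Col4a1 and Col4a2 and 0.489 for Col4a4.

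Col4a1 was measured at 12.4, 9.27 and 11.7 CPM per kb in WT livers B, D and E and at 16.5, 13.9 and 16.3 in KO livers A, C and F. Col4a2 was at 7.62, 5.99 and 6.53 in WT and at 9.57, 9.20 and 9.79 in KO livers. For both genes every KO liver exceeded every WT liver, with log2 fold changes of 0.45 (SE 0.15, adjusted p 0.498) for Col4a1 and 0.47 (SE 0.12, adjusted p 0.428) for Col4a2. The ratio of Col4a1 to Col4a2 was 1.63, 1.55 and 1.79 in WT and 1.72, 1.51 and 1.67 in KO livers, so the genotypes differed by less than the spread within them. In brain Col4a1 was at 1.59, 2.73 and 2.59 in WT and at 2.17, 3.56 and 3.02 in KO libraries. Col4a2 was at 2.02, 2.52 and 2.52 in WT and at 1.98, 3.42 and 3.09 in KO brains. There the ratio was between 0.786 and 1.09, below that of every liver. In liver against brain, Col4a1 was higher by 2.28 (SE 0.22) in WT and 2.41 (SE 0.20) in KO mice, and Col4a2 by 1.52 (SE 0.17) and 1.74 (SE 0.21).

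Col4a4 was at 0.247, 0.105 and 0.313 CPM per kb in WT and at 0.683, 0.491 and 0.429 in KO livers, on 14 to 94 counts, without overlap (log2 fold change 1.23, SE 0.39, adjusted p 0.493). Col4a3 was at 0.184, 0.0719 and 0.263 in WT and at 0.348, 0.244 and 0.906 in KO livers, where KO mouse F stood high with 135 counts and KO mouse C overlapped WT mouse E (1.49, SE 0.59, adjusted p 0.657). Without the filter on low counts edgeR called both, with adjusted p values of 0.0274 for Col4a4 and 0.00638 for Col4a3, among 1.63% of all genes. In brain both were scarce, with 5 to 45 counts for Col4a4 and 2 to 26 for Col4a3, at log2 fold changes of -0.79 (SE 0.51) and -0.97 (SE 0.59). Their difference of effects between organs was 2.05 (SE 0.67, adjusted p 0.321) for Col4a4 and 2.50 (SE 0.89, adjusted p 0.361) for Col4a3. In KO mice both were called higher in liver than in brain, Col4a4 by 2.94 (SE 0.42, adjusted p 0.000113) and Col4a3 by 3.56 (SE 0.67, adjusted p 0.000774). In WT mice Col4a3 was called at 1.08 (SE 0.49, adjusted p 0.0703), a call lost under DESeq2 (adjusted p 0.148), with the Y-linked covariate (adjusted p 0.108), without mouse B (adjusted p 0.264) or mouse E (adjusted p 0.457) and with the mouse as a replicate block in a paired fit (0.97, adjusted p 0.154).

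Col4a5 was at 0.370, 0.237 and 1.32 CPM per kb in WT and at 0.367, 0.255 and 1.49 in KO livers, high in mice E and F and low in the other 4. Its log2 fold change between genotypes was 0.11 (SE 0.91, adjusted p 0.992) and ran from -1.07 without KO mouse F to 1.19 without WT mouse E. In brain it was at 0.376, 0.763 and 0.477 in WT and 0.407, 0.515 and 0.462 in KO libraries. Col4a6 stayed below it everywhere, at 0.0902, 0.00999 and 0.222 in WT and 0.0484, 0.00896 and 0.0336 in KO livers, on 1 to 25 counts, and at 0.0823, 0.214 and 0.124 in WT and 0.136, 0.199 and 0.110 in KO brains. The ratio of Col4a5 to Col4a6 was between 2.59 and 4.56 over the 6 brains and between 4.10 and 44.5 over the livers, where Col4a6 had few counts.

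Ratios of other chains differed between genotypes for some pairs and overlapped for others. Of the collagen VI chains, Col6a3 was the one with the lowest p in KO liver and Col6a1 the one in KO brain. The ratio of Col6a1 to Col6a3 per length was 1.43, 2.12 and 1.69 in WT and 1.08, 0.898 and 1.01 in KO livers, and 8.83, 5.13 and 10.04 in WT and 15.0, 11.2 and 12.4 in KO brains, without overlap in either organ. Col6a2 was at 0.896, 1.06 and 1.27 in WT and 1.39, 1.19 and 1.62 in KO livers (log2 fold change 0.35, SE 0.21, adjusted p 0.793), with overlap. The ratio of Col6a1 to Col6a2 overlapped between genotypes in liver (2.20 to 2.93 in WT, 1.98 to 2.64 in KO) and in brain (2.52 to 4.77 in WT, 4.34 to 6.02 in KO), as did that of Col9a3 to Col9a2 in brain (1.12 to 1.46 in WT, 1.05 to 1.31 in KO). Between 2 separate fibrillar collagens, the ratio of Col3a1 to Col1a1 was between 4.34 and 4.86 in WT livers, between 2.81 and 3.44 in KO livers and between 0.170 and 0.285 in all brains. Col1a1 to Col1a2 was 0.713, 0.903 and 1.13 in WT and 1.30, 1.31 and 1.33 in KO livers, while in brain the genotypes overlapped. Such ratios depend on the annotated exon length, which is long for Col1a2, so they are comparable between groups rather than between pairs.

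Some members followed mice E and F, the mice without Y-linked transcripts, rather than genotype. In liver 5 of 28 members were higher in both mice than in the other 4 (17.9%, against 13.9% of all genes) and 3 were lower in both (10.7%, against 15.5%), so the counts lay near those of all genes. The 5 were Col3a1, Col5a2, Col1a2, Col6a1 and Col4a5. Col5a2 was at 1.54 and 1.05 CPM per kb in mice E and F and between 0.505 and 0.812 in the others, whereas for Col1a2 (2.27 and 2.38, against at most 2.25) and Col6a1 (3.73 and 3.96, against at most 3.66) the gap was small. The 3 lower were Col5a3, Col27a1 (1.04 and 1.02, against at least 2.51) and Col13a1 (2.33 and 2.07, against at least 2.39). In brain 3 of 41 were higher in both (3.86% of all genes were), namely Col19a1, Col20a1 and Col22a1, and Col14a1 was lower in both (4.44% of all genes). No gene was in the liver and the brain lists together, and with 1 such mouse per genotype no test was made.

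Of the remaining members, Col9a1, Col10a1 and Col28a1 had at most 18, 3 and 9 counts in any library and did not pass the filter on low counts in the tissue comparisons. DESeq2 and edgeR without that filter called Col9a1 in both genotypes and Col28a1 in WT mice. Col16a1, a FACIT, was not called in any comparison, at 1.08 ± 0.585 and 1.24 ± 0.375 CPM per kb in WT and KO liver and 1.21 ± 0.123 and 1.27 ± 0.281 in WT and KO brain, but its WT liver level rested on mouse E (167 counts, against 81 and 59), without which it was called between WT liver and brain. Col23a1, a transmembrane collagen, was lower in liver by 3.64 (SE 0.40) in WT and 4.00 (SE 0.36) in KO mice on the log2 scale. Col8a2, Col7a1 and Col12a1 were lower in liver in both genotypes as well, and Col27a1, Col5a1, Col5a2, Col6a2, Col6a3 and Col6a6 higher. The call of Col6a2 was lost in WT without mouse E and in KO without mouse A or F, that of Col24a1 in WT without mouse B or D, and that of Col20a1 in KO without mouse C.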

How the data were processed

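Total RNA of liver and brain was made into libraries by the authors with a SMARTer kit (version 2) for stranded total RNA and sequenced as single 100-base reads on a NovaSeq. Reads were trimmed with Trimmomatic, aligned to mm10 with STAR 2.7.3a and counted by strand over exons with featureCounts. The deposited values are these raw counts per gene of the 12 libraries, without normalization. Total counts per library were 14403309 to 21623180, so genes with under about 10 counts are imprecise.

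From these counts, genes were filtered with filterByExpr, scaled by TMM and tested with the quasi-likelihood test of edgeR 4.0.16 in R 4.3.3, within each tissue for KO against WT, within each genotype for liver against brain, and over all 12 libraries for the difference of genotype effects. P-values were adjusted by Benjamini-Hochberg over all genes tested, with a threshold of 0.1. Since nothing but mouse letters separates the samples of a group, p-values measure the spread between these mice, and n is 3 per group. Levels were computed as CPM with TMM over 12 libraries, divided by kilobases of the union of annotated exons, a length that understates genes with long unions such as Col1a2 and Col25a1. Gene-level counts do not separate isoforms. 3 members share exon bases with another gene on the same strand (Col20a1, Col3a1 and Col7a1, at most 141 bases). The floor was 3 counts per library. Errors are the spread between mice, and no separate interval of counting error was computed.

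Liver and brain of 1 mouse carry the same letter. Deviations from the group means of the 2 tissues correlated between -0.0679 and 0.118 per mouse over 12574 genes, and the pairing comes from the labels, which give the animal. Alternatives were DESeq2 1.42.0, RLE scaling, no filter, removal of mitochondrial rRNA genes, a covariate for Y-linked transcripts, the mouse as a replicate block, a fit over all libraries and leaving out each mouse. Members were named where called between genotypes or, with fewer than 5 called in a direction, by lowest unadjusted p up to 5. The 8 highest members of each organ, the 6 collagen IV genes and the 6 called members of largest fold in each direction between organs were named too. Values in every library were given for most of them. For others, such as Col3a1 and Col5a3 in brain, only fold changes, floor bounds or count ranges were given. List genes were limited to called ones, the 3 of lowest p and those at 0. Vtn, Acta2, Myh11, Cnn1, Rgs5, Notch3 and Pdgfra were added after their values were seen. Col1a1, Col1a2, Col6a2, Col16a1 and Col23a1 and the members that followed mice E and F were added after their values were seen. The members and all gene lists were chosen with earlier results of these data known. Promoter sequences came from RefSeq tables on GRCm38.p6. The fitting script was tested on simulated data.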

Additional observations from a re-analysis of the deposited data

Results flagged for a closer look

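Col18a1 was marked because its genotype effect ran in opposite directions in the 2 organs. Every KO liver lay above every WT liver (239 to 250 against 188 to 235 CPM per kb), and every KO brain lay below every WT brain (0.390 to 1.03 against 1.28 to 2.35 CPM per kb). The difference of the effects was 1.54 on the log2 scale (SE 0.42), with an adjusted p of 0.234 by edgeR over all 18944 genes tested, so it did not pass the threshold. The choroid plexus markers, which summed to 192 to 322 CPM in WT and 98.5 to 154 CPM in KO brains, moved with the brain values. So did the cerebellum markers (912 to 1431 CPM in WT and 216 to 612 CPM in KO brains). Most of each choroid plexus sum was a single gene, Ttr, and the part of either list in the result was not tested.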

How the results depend on the processing

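Calls of collagens between genotypes depended on the tool and the filter. For KO against WT liver edgeR called 0, DESeq2 2 (1.1% of all genes), edgeR without a filter 4 (1.63%) and edgeR with the Y-linked covariate 1 member (0.583%). For brain edgeR called 0, DESeq2 3 (1.58%) and edgeR without a filter 5 (3.15%), and for the difference of effects between organs 0, 3 (2.08%) and 1 (0.531%). Mettl5 in liver passed under DESeq2 (-1.44), without a filter (-1.43) and with the covariate (-1.43), with -1.59 to -1.10 when mice were left out, and in brain without a filter (-0.86, with -1.0 to -0.55). Without single mice edgeR called 0 members in each of these 3 comparisons. Between tissues it called 29 to 33 in WT and 33 to 35 in KO mice without single mice, against 31 and 34 with all, while DESeq2 called 33 and 36 and edgeR without a filter 34 and 36. The paired fit with the mouse as a replicate block called 30 in WT, 34 in KO and 0 for the difference of effects, losing Col4a3 in WT. The median of all genes between tissues was -0.16 in WT and -0.17 in KO mice, -0.32 and -0.62 under DESeq2 and -0.43 and -0.55 in edgeR without a filter, both over more genes, and -0.24 in each with RLE scaling over the same genes.
Without mitochondrial rRNA the collagen share of counts was 0.178% in WT liver, 0.208% in KO liver, 0.0406% in WT brain and 0.0423% in KO brain, so that the order of the brain means turned. Summed levels without TMM and without mitochondrial rRNA genes were 211 and 324 CPM per kb in WT liver, 266 and 390 in KO liver, 49.0 and 42.0 in WT brain, and 42.9 and 42.6 in KO brain.
Among the named genes, each followed in the comparisons it was named for, directions reversed for 4. The other members were not followed in this way. Col6a5 in liver was 0.11 with the covariate and -0.92 to 1.61 without single mice. Col4a5 ran from -1.07 to 1.19 in liver, -0.41 to 0.11 in brain, -0.89 to 0.98 for liver against brain in WT (-0.061 with the covariate), -0.57 to 1.10 in KO, and -0.82 to 1.52 for the difference of effects. Col4a6 ran from -0.20 to 0.50 in brain and -1.49 to 0.58 between WT tissues, and Col4a1 from -0.11 to 0.44 for the difference of effects. Of 408 alternative values for named genes between genotypes, 380 kept direction and side of the threshold, 15 newly passed and 13 reversed. Of 315 between tissues, 304 did, 2 newly passed, 5 no longer passed and 4 reversed. The causes were not tested.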

Other observations

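Other genes of the collagen pathway and markers of the cells that make collagen were also compared between organs, where 35.4% of all genes were called higher and 42.9% lower in WT liver, and 36.2% and 44.1% in KO liver. In WT mice edgeR called 9 of 22 modification and secretion genes higher and 6 lower in liver, among them P4hb, a subunit of prolyl hydroxylase (log2 fold change 4.14, SE 0.26), and Mia2 (4.01, SE 0.23), and in KO mice 12 higher and 5 lower. Of 16 processing genes 7 were higher and 5 lower in WT and 10 and 4 in KO mice, with Adamts3, a procollagen peptidase, at -5.06 (SE 0.31). Of 9 receptors 3 were higher and 4 lower, including the integrin Itga1 (3.51, SE 0.19) and the kinase receptor Ddr1 (-4.10, SE 0.28). Of 9 degradation genes and inhibitors 3 were higher and 5 lower in WT mice. Basement membrane partners stood at 9 higher and 2 lower of 16 in WT mice, with Hspg2 at 3.99 (SE 0.40) and Nid2 at 3.18 (SE 0.26). Of 14 stellate cell markers 11 were higher and 0 lower in WT and 13 and 0 in KO mice, with the proteoglycan Dcn at 3.89 (SE 0.19). Of 12 endothelial markers 10 were higher and 0 lower in WT and 11 and 1 in KO mice, and of 11 pericyte and smooth muscle markers 8 and 1 in WT and 8 and 2 in KO mice. Meningeal and perivascular fibroblast markers were more often lower, with 5 higher and 8 lower of 14 in WT and 5 and 8 of 13 in KO mice.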
